A study of Mus musculus with 6 samples.

Results

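Cirbp and Rbm3 encode a pair of small RNA-binding proteins whose RNAs are known to rise in mildly cooled mammalian cells, and their levels were followed here in the lungs of WT and Zpbp2 KO mice. The rows labelled Cirbp and Rbm3 were taken from a table of read counts, which makes 2 genes out of 47069. They were selected on their measured KO and WT levels, being known to differ between these same 6 mice, so that difference is described below without a test. Both were among the 17037 genes expressed highly enough to be tested.

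The study asked whether the Zpbp2 region takes part in the regulation of nearby and clock genes, and its mRNA sequencing at ZT10 compared lungs of 3 adult KO mice (KO4 to KO6) with those of 3 adult WT mice (WT4 to WT6). WT mice were C57BL/6J. KO mice carried a germline deletion of the 5′ part of Zpbp2 (exons 1 to 3) in a C57BL/6J background. No treatment or other engineered allele is described for either line, both were kept in 1 colony under a light/dark cycle, and collection at ZT10 means 10 h after lights on, in the later part of the resting phase of mice. The study used mice of both sexes, and the sex of each sequenced mouse, its exact age, whether KO and WT mice were littermates, and the body or room temperature at collection are not given in the sources used here. Each library came from 1 mouse, so the spread within a group is that between mice.

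CIRBP and RBM3 each join an RNA recognition motif to a glycine-rich tail and bind many messenger RNAs, and they are known to affect RNA stability, translation and the choice of polyadenylation sites. Their RNAs are known to move against those of heat shock chaperones, which the transcription factor HSF1 switches on when cells are warmed. In mice the daily rhythm of body temperature is known to drive a rhythm of Cirbp RNA, through splicing as well as transcription.

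The libraries held from 19981428 to 46796908 counted reads, with KO5 the deepest. Levels are given in CPM, the read count over a library total that was adjusted by TMM factors, and at these depths a floor of 3 counts equals between 0.0629 and 0.148 CPM, counting error only. Zpbp2 itself was counted 1 time in WT4, 2 times in WT5 and in WT6, and 0 times in each KO mouse, all at or under that floor, so the deletion could not be checked from its own RNA. Xist lay between 715.01 and 993.73 CPM in all 6 mice, and the Y-linked genes Ddx3y, Uty, Kdm5d and Eif2s3y lay at or below 0.189 CPM. Defining genes of the lung were abundant in each library, and each of the 54 marker genes followed over 15 cell type and handling lists had counts above 0 in every mouse.

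In the GRCm38 build, Cirbp (ENSMUSG00000045193) spans 80165985 to 80172786 of chromosome 10, plus strand. Rbm3 (ENSMUSG00000031167) spans 8138975 to 8145880 of the X chromosome, minus strand. The promoter of Cirbp is shown because cold-dependent transcription of this gene has been mapped to its upstream sequence, and of the 2 genes it is the one with an entry in the promoter table used. The window runs from 250 bases before to 50 bases after a RefSeq transcription start, at chr10:80167589-80167888 on the plus strand (RefSeq, GRCm38.p6). Capitals mark the GC box GGGCGG, the CCAAT box CCAAT and the sequence TCCCCGCC, each searched on both strands.
Cirbp promoter: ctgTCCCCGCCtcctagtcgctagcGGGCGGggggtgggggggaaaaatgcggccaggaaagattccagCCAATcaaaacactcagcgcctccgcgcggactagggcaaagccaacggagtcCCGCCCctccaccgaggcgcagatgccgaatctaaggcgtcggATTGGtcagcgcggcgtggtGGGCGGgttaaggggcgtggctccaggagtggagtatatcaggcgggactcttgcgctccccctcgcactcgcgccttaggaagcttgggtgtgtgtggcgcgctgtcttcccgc

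The window is rich in G and C (65.7%), above 83.0% of the 32851 promoter windows in the table. It holds 3 GC boxes, the binding sequence of the SP1 family, and 35.7% of all windows hold at least 1. The CCAAT box occurs 2 times, against at least once in 37.4% of all windows. The sequence TCCCCGCC, which is known as the mild cold-responsive element of Cirbp, stands 247 to 240 bases before the start, and 5.38% of all windows hold it. This last sequence was added to the search after the promoter had been read. The heat shock element GAANNTTC, the form of the HSF1 site searched here, was absent from this window, and 7.86% of all windows hold it. The E-box CACGTG and the core TGACG of the cAMP element were absent too, with 7.15% and 20.8% of all windows holding them. A second start of Cirbp, with the window chr10:80167921-80168220, has 4 GC boxes and 1 TGACG and none of the other sequences. A match of letters is a description of the sequence and does not show that a factor binds there.

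Cirbp RNA was higher in the lungs of KO mice. The WT lungs gave 1199 (WT4), 981 (WT5) and 1345 (WT6) reads of this gene, and the KO lungs 1930 (KO4), 4265 (KO5) and 1742 (KO6). Scaled for library size these were 48.3, 47.01 and 43.5 CPM in the WT mice and 94.3, 89.5 and 86.0 CPM in the KO mice. The groups did not overlap, which was so for 32.6% of tested genes (17.0% with all KO mice higher), and the lowest KO mouse (KO6) stood 1.78-fold above the highest WT mouse (WT4). WT mice averaged 46.3 ± 2.47 CPM and KO mice 89.9 ± 4.19 CPM (mean and SD, n = 3 each), a 1.95-fold difference (log2 fold change 0.96, standard error 0.0603). Over the 9 pairings of a KO with a WT mouse the fold lay between 1.78 and 2.17.

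Rbm3 RNA was also higher in KO mice, by a smaller fold. The WT lungs gave 2835 (WT4), 2355 (WT5) and 3688 (WT6) reads, and the KO lungs 3679 (KO4), 8423 (KO5) and 3268 (KO6). These corresponded to 114.1, 112.9 and 119.3 CPM in the WT mice and to 179.8, 176.7 and 161.4 CPM in the KO mice. Again no KO mouse overlapped the WT mice, with KO6 the lowest of the KO mice and WT6 the highest of the WT mice. WT mice averaged 115.4 ± 3.40 CPM and KO mice 172.6 ± 9.89 CPM (mean and SD, n = 3 each), a 1.496-fold difference (log2 fold change 0.58, standard error 0.0583). The 9 pairings of a KO with a WT mouse gave folds between 1.35 and 1.59.

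**Figure D1:**
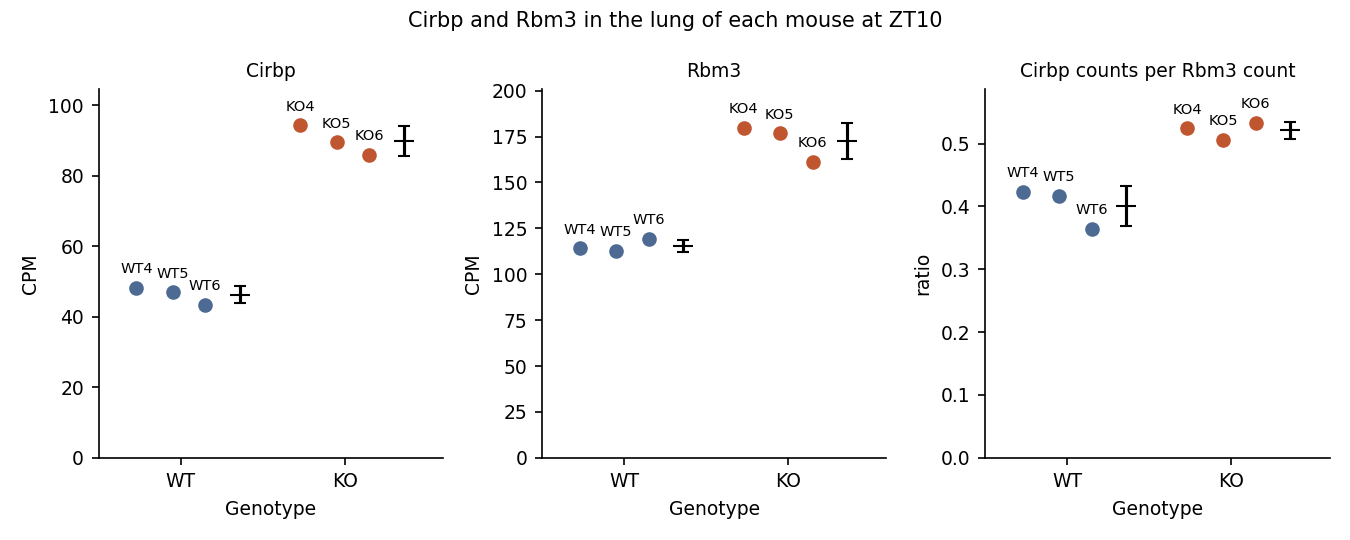
Each point is 1 mouse, and the bars give the mean and SD of the 3 mice of a genotype; the left and middle panels show CPM and the right panel the number of Cirbp counts per Rbm3 count. In all 3 panels the KO mice lie above the WT mice, with Cirbp at 86.0 to 94.3 CPM in KO and 43.5 to 48.3 CPM in WT mice.

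Such a gap between the groups was common in these libraries, so it says little about the pair on its own. At an adjusted p-value of at most 0.05 (edgeR quasi-likelihood F-test, Benjamini-Hochberg adjustment), 3.72% of tested genes rose in KO mice. In size, the log2 fold change of Cirbp was reached or passed by 3.70% of tested genes and that of Rbm3 by 8.19%. Neither gene reached the |logFC| of 1.5 by which the study defined differential expression.

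The values were tight within each genotype. The coefficient of variation of Cirbp was 5.34% in WT and 4.65% in KO mice, where counting alone would give up to 3.19% and 2.40%. That of Rbm3 was 2.95% in WT and 5.73% in KO mice, where counting alone would give up to 2.06% and 1.75%. Pooled over both groups on the log2 scale, the SD was 0.0726 for Cirbp and 0.0664 for Rbm3, against a median of 0.13 over all tested genes. Of all tested genes, 23.0% had a lower SD than Cirbp and 18.9% a lower SD than Rbm3. In CPM the order KO4, KO5, KO6 from high to low was shared by both genes, whereas WT6 had the lowest Cirbp and the highest Rbm3 of the WT mice.

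The balance between the 2 RNAs also differed. The number of Cirbp counts per Rbm3 count does not depend on how library sizes are scaled, and it was 0.423, 0.417 and 0.365 in WT4, WT5 and WT6 and 0.525, 0.506 and 0.533 in KO4, KO5 and KO6. The KO mice lay above the WT mice without overlap. The mean ratio was 0.401 ± 0.0319 (SD, n = 3) in WT mice and 0.521 ± 0.0136 (SD, n = 3) in KO mice, a difference of 0.38 on the log2 scale. Cirbp thus exceeded Rbm3 in its rise by this amount in log2 fold change, and the difference was between 0.31 and 0.42 with any 1 mouse left out.

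The level of Eef2, the elongation factor RNA that the study used as reference in RT-qPCR, served as a scale of its own. Eef2 measured 1526.1 ± 37.8 CPM in WT and 1644.2 ± 102.7 CPM in KO lungs (SD, n = 3 each). Relative to Eef2, Cirbp stood at 3.08%, 3.13% and 2.89% in WT4, WT5 and WT6 and at 5.80%, 5.10% and 5.54% in KO4, KO5 and KO6. Rbm3 stood at 7.27%, 7.51% and 7.92% in the WT mice and at 11.1%, 10.1% and 10.4% in the KO mice, in the same order of mice. On this scale the log2 difference was 0.85 for Cirbp and 0.47 for Rbm3, below the values on the TMM scale and still with no overlap between genotypes.

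Both genes were well expressed in the lung. Per kilobase of annotated exon, a scale that allows levels of different genes to be compared, Cirbp had 17.8 CPM per kb in WT and 34.5 in KO mice, and Rbm3 had 24.6 in WT and 36.7 in KO mice. In WT mice these levels were above 82.4% and 87.8% of tested genes, and in KO mice above 91.99% and 92.5%. The exon length, 2604 bp for Cirbp and 4698 bp for Rbm3, is the union over all annotated transcripts and includes retained introns. GENCODE lists 7 transcripts of Cirbp, of which 4 retain an intron and 1 is a target of nonsense-mediated decay, and 11 of Rbm3, of which 2 retain an intron and 2 are such targets. Counts per gene add these forms together, so the productive and unproductive RNAs could not be separated.

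Cirbp shared little sequence with other genes, and Rbm3 shared more. The longest run shared by a Cirbp and an Rbm3 transcript was 11 bases. No transcript of another gene shared a run of 50 bases with Cirbp. For Rbm3, processed pseudogenes did share such runs, among them Gm15453 (also called Rbm3-ps, on chromosome 1 from 150265535 to 150265999) and Gm10156 on chromosome 7, while a retained-intron transcript of Srsf3 and the intronic Gm42463 shared only 3 and 5 such windows. The 3 pseudogenes with a row in the count table together held between 0.764% and 1.11% of the Rbm3 counts of the same mouse. Another, Gm48583, had no row. How reads that fit several places equally well were counted is not stated, so this share does not measure them. The antisense gene Rbm3os overlaps the 5′ end of Rbm3 by 452 bp and had between 8 and 24 counts per mouse. The kit preserved strand, but the strand setting of the counting is not stated.

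No neighbour of Cirbp on the chromosome was called. Of 11 other tested genes within 100 kb, 0 passed an adjusted p-value of 0.05, with log2 fold changes between -0.21 and 0.28. The nearest on either side were Midn, 7.617 kb before Cirbp, with -0.19 (standard error 0.0612), and 1600002K03Rik, 0.158 kb after it, with -0.21 (standard error 0.166). Around Rbm3, 1 of 9 tested genes passed, where 6.39% of all tested genes did. This was Was, 48.477 kb away, which encodes the Wiskott-Aldrich protein of blood cells and measured 12.3 ± 1.10 CPM in WT and 24.7 ± 6.20 CPM in KO lungs (SD, n = 3 each), and it did not pass without WT4, WT5, WT6 or KO6. The nearest genes Wdr13 and Tbc1d25 had log2 fold changes of -0.02 and -0.08, and the antisense gene Rbm3os had 0.61 (standard error 0.327) without passing.

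**Figure D2:**
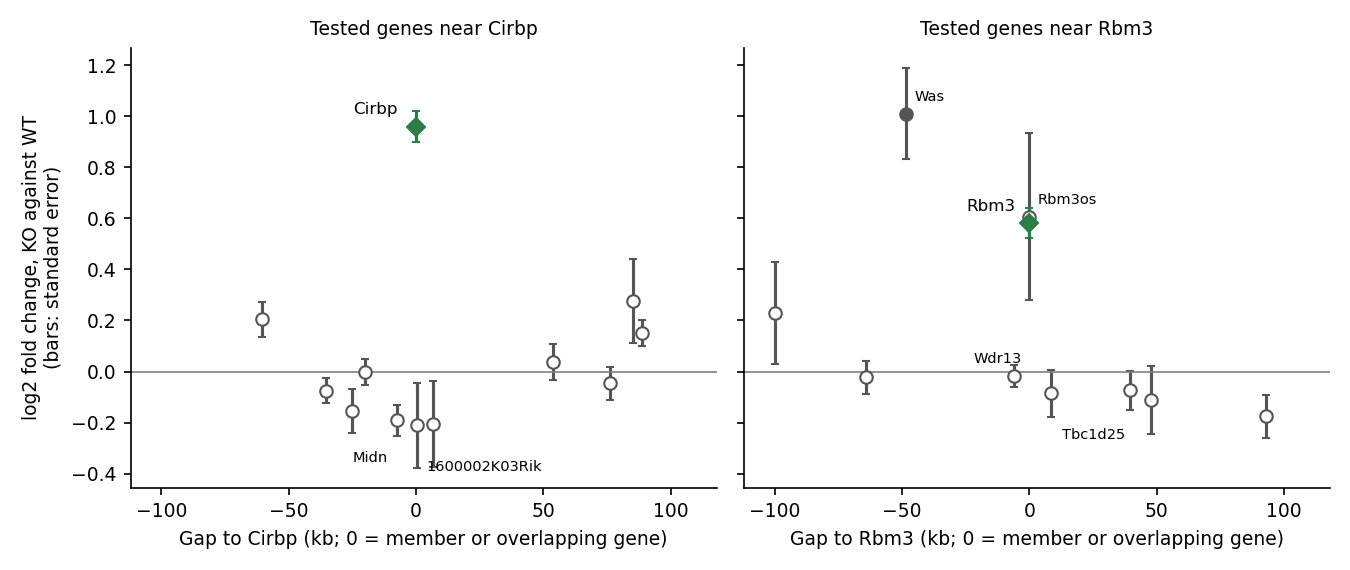
Log2 fold change with its standard error (vertical axis) for every tested gene within 100 kb of Cirbp (left) and Rbm3 (right) against the gap to that gene in kb. Diamonds mark Cirbp and Rbm3, shown without a test; among the neighbours, filled circles are genes with an adjusted p-value of at most 0.05 and open circles the others, and only the circle of Was is filled.

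Heat shock genes went the other way. Of 28 genes for heat shock factors, chaperones and co-chaperones, all of them tested, 21 fell in KO mice and 0 rose at an adjusted p-value of at most 0.05 (same edgeR test), where 2.67% of all tested genes fell. The median log2 fold change of the list was -0.86, against 0.00295 over all tested genes, and 25 of the 28 had all KO mice below all WT mice, where 15.6% of tested genes did. The list was drawn up with earlier results of these data known, and Hsph1 is among the genes the study itself called, so their direction is not independent evidence.

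Hsph1, the HSP110 co-chaperone, had 216.4, 258.8 and 304.99 CPM in WT4, WT5 and WT6 and 65.4, 64.9 and 78.9 CPM in KO4, KO5 and KO6. It fell by 1.90 on the log2 scale, the lowest value of the list (standard error 0.139, adjusted p = 0.00466, edgeR). Dnajb1, an HSP40 that loads substrates onto HSP70, fell from 91.5 ± 7.70 to 41.9 ± 2.19 CPM (SD, n = 3 each, log2 fold change -1.13, adjusted p = 0.00466). Hspa8, the constitutive HSP70, fell from 1612.1 ± 235.6 to 725.8 ± 17.0 CPM (SD, n = 3 each, log2 fold change -1.15, adjusted p = 0.00665). Dnaja1, another HSP40, had a log2 fold change of -1.22 (adjusted p = 0.00653). Ahsa2, an activator of HSP90, had -1.08 (adjusted p = 0.00665), and Fkbp4, a co-chaperone of steroid receptors, had -0.88 (adjusted p = 0.00653). All adjusted p-values given here are from the edgeR quasi-likelihood F-test, adjusted over all tested genes.

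The 6 genes just named lost their call in 1 of the 6 fits with a mouse left out, that without WT5. Hsp90aa1, the inducible HSP90, also fell, by 1.11 on the log2 scale (standard error 0.131), and did not pass without WT5 or KO6. The strongly inducible Hspa1a and Hspa1b did not pass, with log2 fold changes of -1.85 (standard error 0.699, adjusted p = 0.154) and -1.82 (standard error 0.743, adjusted p = 0.180) from the same edgeR test. Hspa1a measured 13.7, 28.6 and 68.9 CPM in WT4, WT5 and WT6 and 11.1, 3.67 and 17.1 CPM in KO4, KO5 and KO6, so the groups overlapped and WT6 was far above the rest. These 2 genes are near-identical copies between which counting can split reads. In its separate sequencing experiment at another time of day, the study listed both as higher in KO lungs. Hsf1, which encodes the regulator of the response, measured 47.6 ± 1.44 CPM in WT and 42.6 ± 2.62 CPM in KO lungs (SD, n = 3 each) and did not pass (adjusted p = 0.165, edgeR). Without WT5, 0 of the 28 genes passed, while the median was still -0.86, and over all tested genes 1 passed in that fit. At an unadjusted p of at most 0.05 in the same edgeR test and fit, 24 of the 28 passed, as did 3168 of 17545 tested genes.

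**Figure D3:**
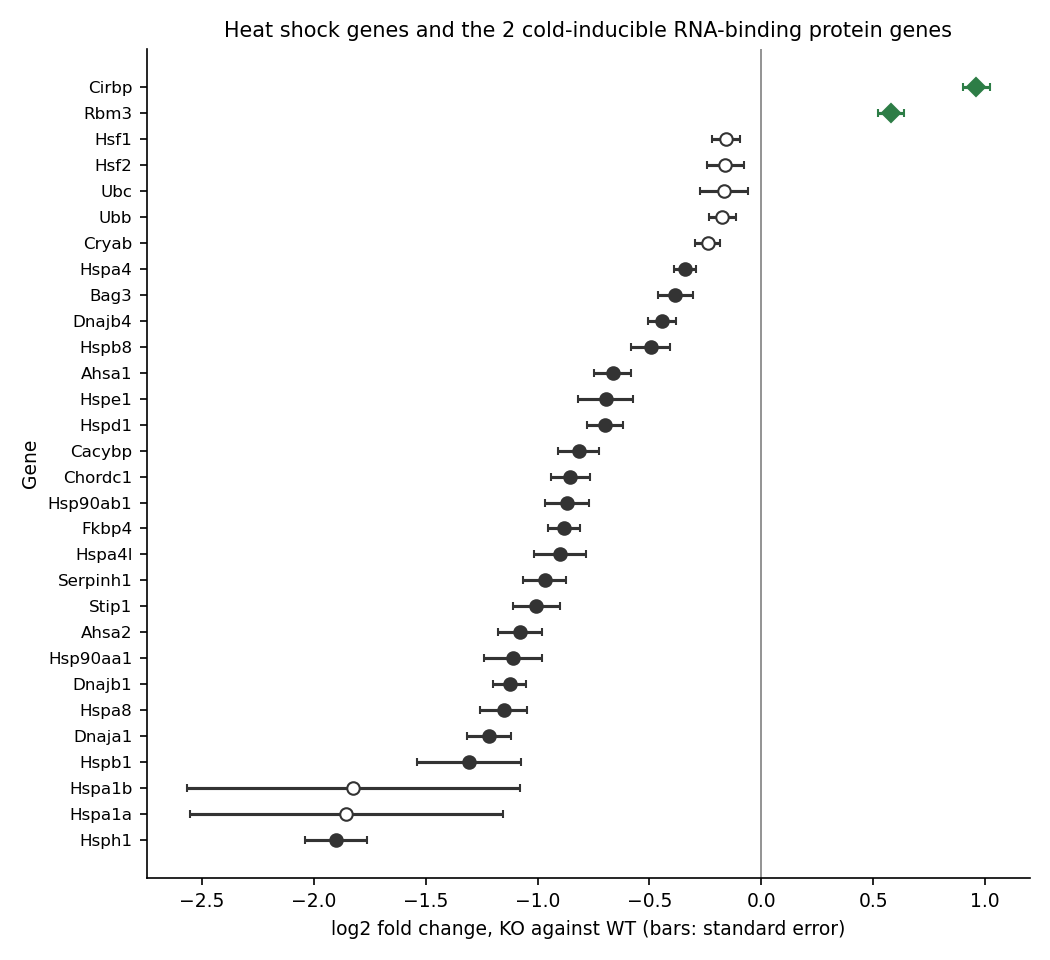
Log2 fold change of KO against WT mice with its standard error (horizontal axis) for the 28 heat shock genes (circles, filled where the adjusted p-value was at most 0.05) and for Cirbp and Rbm3 (diamonds, given without a test). All 28 heat shock genes lie left of 0, down to -1.90 for Hsph1, and Cirbp and Rbm3 lie right of it at 0.96 and 0.58.

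Mouse by mouse, the mean of the heat shock list relative to the WT mean was -0.20, -0.03 and 0.23 on the log2 scale in WT4, WT5 and WT6 and -0.83, -0.97 and -0.70 in KO4, KO5 and KO6. On the same scale Cirbp stood at 0.06, 0.02 and -0.09 in the WT mice and at 1.03, 0.95 and 0.90 in the KO mice. Rbm3 stood at -0.02, -0.03 and 0.05 in the WT mice and at 0.64, 0.61 and 0.48 in the KO mice. On this CPM scale KO6 was thus the KO mouse with the highest heat shock mean and with the lowest Cirbp and Rbm3. Relative to Eef2 the lowest KO mouse was instead KO5, with Cirbp at 5.10% and Rbm3 at 10.1%, against 5.54% and 10.4% in KO6. In CPM, KO5 had the lowest heat shock mean, whereas KO4 had the highest Cirbp and Rbm3. WT6 was the WT mouse with the highest heat shock mean, the lowest Cirbp and the highest Rbm3. No correlation is given over these mice, since they fall into 2 groups. The heat shock element GAANNTTC was found in promoter windows of 11 of the 22 heat shock genes that have an entry, against 9.04% of all 27025 genes with an entry. The GC box was found in 20 of these 22 (38.2% of all genes), and TCCCCGCC in 6 (6.19%). CCAAT was found in 11 (41.1%), TGACG in 11 (23.0%) and CACGTG in 3 (8.09%).

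RNA-binding relatives of the pair moved little. The list held RBMX and its copies, hnRNP A and D proteins, SR splicing factors and the CLK and SRPK kinases. Of the 28 members tested out of 30, 2 rose and 0 fell, where 3.72% of all tested genes rose, and the median log2 fold change was -0.03. The 2 that rose passed by small folds. Hnrnpd, which binds AU-rich elements, rose from 132.7 ± 3.22 to 165.5 ± 5.41 CPM (SD, n = 3 each, log2 fold change 0.32, adjusted p = 0.0211, edgeR). Srsf5, an SR protein, rose from 488.5 ± 15.7 to 622.6 ± 32.4 CPM (SD, n = 3 each, log2 fold change 0.35, adjusted p = 0.0266, edgeR). Without WT4, WT5, WT6 or KO6, 0 genes of this list passed.

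Rbmx, an X-linked gene for a splicing regulator of similar domain layout, measured 60.6 ± 1.74 CPM in WT and 71.99 ± 6.55 CPM in KO lungs (SD, n = 3 each, log2 fold change 0.25, standard error 0.0714, adjusted p = 0.0831, edgeR) and did not pass. Clk1 and Clk4, the kinases whose activity drops as body temperature rises, had log2 fold changes of -0.01 (standard error 0.0927) and -0.03 (standard error 0.0704). Hnrnph1 and Srsf3, both known to act on an unproductive exon of Rbm3, had -0.06 (standard error 0.0824) and -0.05 (standard error 0.0519). For all of these the WT and KO mice overlapped, except for Rbmx.

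Known partners and regulators of the pair were near the background of all genes. Of 15 such genes, 0 passed the edgeR quasi-likelihood F-test, where 6.39% of all tested genes did, and 4 had an unadjusted p of at most 0.05, where 25.5% of all tested genes did. Likewise 0 passed in DESeq2 and in edgeR's exact test. Sp1, whose family binds the GC box, measured 147.4 ± 2.87 CPM in WT and 156.7 ± 10.2 CPM in KO lungs (SD, n = 3 each). Rtn3, a synaptic protein whose translation RBM3 promotes in neurons, measured 263.95 ± 6.91 CPM in WT and 240.5 ± 6.64 CPM in KO lungs (SD, n = 3 each), with an adjusted p of 0.151 (edgeR). Tnpo1, the importer of CIRBP into the nucleus, and Prmt1, which methylates it, had log2 fold changes of -0.02 (standard error 0.0679) and 0.08 (standard error 0.121). The row labelled Prmt1 carries an identifier that the annotation used here does not place.

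Of 10 thermosensitive TRP channel genes 5 were expressed highly enough to be tested, and 1 rose, where 3.72% of all tested genes did. Trpm2, which is known from myeloid cells as well as from warmth sensing, rose from 4.42 ± 0.501 to 13.2 ± 3.55 CPM (SD, n = 3 each, log2 fold change 1.59, adjusted p = 0.0163, edgeR), and it is among the genes the study called. It did not pass without WT5, WT6 or KO6, where 0 of the list passed. Trpv4, which has been linked to the induction of Rbm3 by cold, did not pass (log2 fold change -0.24, standard error 0.107, adjusted p = 0.216, edgeR).

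The genes closest to each of the pair in profile were of low abundance. Likeness was measured as the root mean square difference between log2 CPM profiles over the 6 mice, each centred on its own mean. Nearest to Rbm3 were Blm, a DNA helicase, at 0.0491, Afm at 0.0536, Entpd8 at 0.0540, Wbscr27 at 0.0563 and Podnl1 at 0.0580, with 16 to 549 counts per mouse among them. Nearest to Cirbp were 9630013D21Rik at 0.0908, 2410022M11Rik at 0.0931, Gm9910 at 0.0936, Stfa2l1 at 0.0940 and Gm16638 at 0.0951, with 8 to 438 counts per mouse. Cirbp and Rbm3 differed from each other by 0.203 on this measure, which placed Rbm3 at rank 146 among the genes nearest to Cirbp and Cirbp at rank 1242 among those nearest to Rbm3.

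Markers of several cell types moved with genotype in the same libraries, in which 3.72% of all tested genes rose and 2.67% fell. The summed level of the 4 B cell genes lay between 72.7 and 87.4 CPM in WT mice and at 150.1, 595.9 and 164.5 CPM in KO4, KO5 and KO6, with 0 of 4 genes past the test. The summed level of the 4 monocyte genes lay between 178.9 and 213.6 CPM in WT and between 286.4 and 353.9 CPM in KO mice, and 4 of 4 rose. The 4 haemoglobin genes of red cells, some of them near-identical copies, lay between 2023.1 and 2172.5 CPM in sum in WT and between 987.7 and 1340.6 CPM in KO mice, and 4 of 4 fell. The 3 neutrophil genes summed to 40.9 to 70.2 CPM in WT and 110.6 to 127.3 CPM in KO mice, without overlap for any of them, and S100a8 and S100a9 rose (median log2 fold change of the list 1.01). Neither of the 2 passed without WT4, WT5 or KO6, and S100a8 did not pass without WT6. The 4 T cell genes summed to 20.03 to 22.0 CPM in WT and 24.4 to 54.1 CPM in KO mice, also without overlap, with 0 of 4 past the test (median log2 fold change 0.87). Such a gap, with all KO mice higher, was seen for 17.0% of all tested genes. Without WT5 or WT6, 0 of the 4 monocyte and 0 of the 4 haemoglobin genes passed, and without KO6 2 (Ccr2 and Cx3cr1) and 0 did. The immediate early genes, which respond to handling, summed to 453.9, 532.8 and 990.9 CPM in WT4, WT5 and WT6 and to 585.9, 385.8 and 475.8 CPM in KO4, KO5 and KO6, with 0 of 5 past the test. Among the 4 alveolar macrophage genes 1 rose, Marco (log2 fold change 1.26), and among the 4 endothelial genes 1 fell, Cldn5 (-0.31). No gene passed in the other lists. Their median log2 fold changes were -0.18 for type 2 and -0.19 for type 1 alveolar, -0.32 for club and -0.38 for ciliated cells. They were -0.43 for smooth muscle, -0.42 for cardiac muscle and 0.28 for adipocytes. In bulk tissue a shift in the number of cells of a type and a shift in RNA per cell cannot be told apart.

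KO5 had more than 3-fold the B cell level of the other KO mice, and in CPM its Cirbp and Rbm3 lay between those of KO4 and KO6. Relative to Eef2, KO5 was the lowest of the KO mice for both genes. Without KO5 the log2 fold change was 0.96 for Cirbp and 0.56 for Rbm3. With WT6 left out, the mouse with the highest immediate early level, it was 0.91 for Cirbp and 0.60 for Rbm3. The part of monocyte, neutrophil, T cell, red cell and other marker shifts in the difference was not tested.

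**Figure D4:**
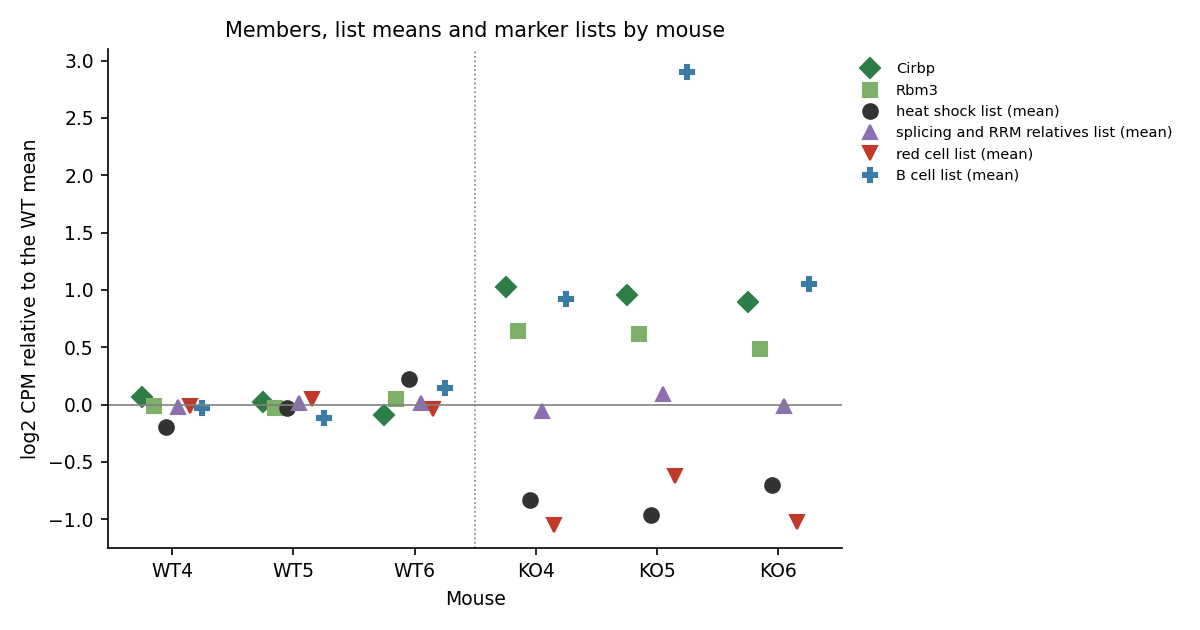
Log2 CPM relative to the mean of the WT mice (vertical axis) for each mouse (horizontal axis), for Cirbp and Rbm3 and for the means of the heat shock, RNA-binding relatives, red cell and B cell lists. In KO4, KO5 and KO6 Cirbp stands at 1.03, 0.95 and 0.90 and the heat shock mean at -0.83, -0.97 and -0.70, while the B cell mean is highest in KO5 at 2.9.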

How the data were processed

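Lung mRNA was sequenced from 3 WT and 3 KO mice at ZT10, with 1 stranded TruSeq library per mouse. Per the study's methods and the submitters' processing notes, the authors trimmed reads with Trimmomatic 0.36, aligned them to GRCm38 with STAR 2.5.3a and counted them with HTSeq 0.6.0, with Picard 2.9.0 also listed. The deposited values are raw counts per Ensembl gene without normalization. The annotation release and strand setting are not given in the sources used here. Libraries were assigned by their titles.

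The KO against WT comparison used edgeR 4.0.16 under R 4.3.3 and its quasi-likelihood test (TMM, filterByExpr with minimum count 10 and minimum total 15, all 6 libraries, no covariates), with Benjamini-Hochberg adjustment over 17037 genes. The standard error is |log2 fold change| over the square root of F. Total counts ranged from 19981428 to 46796908. Positions, lengths and GC content came from GENCODE mouse release 21, and promoters from RefSeq (GRCm38.p6). The fits were tested on simulated data.

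The 2 genes and all lists were chosen with earlier results of these data known. Genes named are the pair, Zpbp2, Eef2, sex-linked and neighbouring genes, pseudogene copies, 5 nearest profiles each, set list genes and up to 6 of each list with the lowest adjusted p. Alternatives were DESeq2 1.42.0 and its size factors, upper-quartile factors, 2 other filters, edgeR's exact test, a replicate block, a GC offset over 20 bins, removal of immunoglobulin genes, scaling to Eef2, and each mouse left out. Python 3.11.15 made the tables and figures.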

Additional observations from a re-analysis of the deposited data

How the results depend on the processing

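Cirbp and Rbm3 were higher in KO mice under each of the 16 alternatives tried for each. Their log2 fold changes moved by more than the spread between mice only when scaled to Eef2, to 0.85 and 0.47. With each mouse left out they lay between 0.91 and 0.99 for Cirbp and between 0.55 and 0.63 for Rbm3, and the log2 ratio of the pair differed by 0.31 to 0.42. Called genes were less stable. Over all genes 1089 passed an adjusted p-value of 0.05, against 1913 with DESeq2 and between 1 (without WT5) and 1278 (without KO4) with 1 mouse left out, with 254 without WT4, 63 without WT6 and 117 without KO6. For the heat shock list 21 passed, between 0 (without WT5) and 20 in these fits. For the RNA-binding relatives 2 passed, 4 with DESeq2 and 0 to 3 with a mouse left out. For the partners 0 passed, and 0 to 1 with a mouse left out (Trem1 without KO5). For the TRP channels 1 passed, 2 with no filter and with edgeR's exact test or DESeq2 (Trpm2 and Trpv2 in the latter pair), and 0 to 2 with a mouse left out. The cause of these changes was not tested. WT and KO mice share the numbers 4 to 6, but same-numbered mice did not deviate together (correlations of -0.03, -0.15 and -0.02), and 0 of the 6 mice correlated best with its own number. With the replicate block 66 genes passed over all genes, 12 of the heat shock list, 0 of the relatives and 0 of the TRP channels, and the log2 fold changes of Cirbp and Rbm3 were 0.96 and 0.58. Depth did not limit the pair, which had at least 981 counts in every library; 5 of the 10 TRP channel genes were too low to test.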
